A study of Mus musculus with 6 samples.

Results

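Oncostatin M (OSM) was compared directly with leukemia inhibitory factor (LIF) as the cytokine that keeps mouse embryonic stem cells (mESCs) in culture. The comparison used 4 of the 6 RNA-seq libraries of the study, 2 of mESCs grown with 10 ng/mL OSM (OSM-ESCs) and 2 of mESCs grown with 1000 U/mL LIF (LIF-ESCs). The libraries were chosen by their labels, and no measured value entered that choice. The other 2 libraries came from mESCs kept without either cytokine (-LIF-ESCs), and their values are given only where they help to read a difference. All groups came from a C57BL/6 x 129S6 mESC line that had been grown for 5 passages on MEF feeder cells, embryonic fibroblasts stopped from dividing with mitomycin C, in serum and LIF, and then for 10 passages in its own medium. The sources used here name 1 line and do not say whether feeder cells were kept in the 3 media. They call the libraries of a group biological replicates without saying at which step the cultures were separated. P-values weigh a difference against the spread between replicate libraries, estimated from all 6 libraries, the -LIF-ESC ones included. They speak only for these libraries. The extraction text of the labels mentions ovaries, while the cell type label says embryonic stem cells, and the mESC markers Pou5f1, Sox2, Nanog, Zfp42 and Esrrb were at 220.2 TPM or more in each of the 4 libraries.

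LIF and OSM belong to the IL-6 cytokine family, whose receptors share the signalling chain gp130 (Il6st). LIF binds gp130 together with the LIF receptor (Lifr), and mouse OSM signals mainly through gp130 paired with the OSM receptor (Osmr). Both complexes activate JAK kinases, which phosphorylate the transcription factor Stat3, and active Stat3 feeds the naive pluripotency network through Klf4 and Tfcp2l1 while inducing its own inhibitor, Socs3. OSM receptors are also well known on fibroblasts and other stromal cells, where the cytokine acts on matrix, chemokine and protease genes.

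The deposited table holds TPM, a level per unit of gene length with each library scaled to the same total. The reads behind these values were recovered and came to 22856955 and 21869003 in LIF-ESCs and to 24959421 and 28994417 in OSM-ESCs. Differences are given as log2 fold changes of TPM + 1, OSM-ESCs over LIF-ESCs, with their standard error (SE), and they understate the change of low genes. The 12439 genes with a mean of at least 5 TPM over the 4 libraries were tested with limma, since below that level many gene models rest on a few reads. A gene passed the test at a Benjamini-Hochberg adjusted p under 0.05. In each pair of TPM values, replicate 1 is named first.

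OSM-ESCs and LIF-ESCs were close across the transcriptome. Of all genes tested, 98.4% lay within 1.5-fold and 88.6% within 1.2-fold, and the median log2 fold change was 0.0036. Only 34 genes differed by more than 2-fold, and 32 of these were gene models that carry only a clone or model number. The exceptions were Ndufa4l2 and Srgn, both lower in OSM-ESCs. In all, 176 genes passed the test as higher in OSM-ESCs (1.41% of those tested) and 44 as lower (0.354%), with a median absolute log2 fold change of 0.457 and 0.401. An unadjusted p under 0.05 was reached by 1415 genes higher (11.4%) and 757 lower (6.09%) in OSM-ESCs. In 27.2% of genes both OSM-ESC libraries lay above both LIF-ESC libraries, and in 22.7% both lay below. With 2 libraries a group the adjusted calls rest on all of them. Without LIF-ESC replicate 1, LIF-ESC replicate 2 or OSM-ESC replicate 1, 0 genes passed in limma, with 421 to 1034 at an unadjusted p under 0.05 in a direction. Without OSM-ESC replicate 2, 1 gene model passed in each direction (Mir7059 and Gm23935), and without -LIF-ESC replicate 1 or 2, 73 or 72 passed as higher and 12 as lower. Tested on the recovered reads with limma's voom, 827 genes passed as higher (7.21% of 11475) and 441 as lower (3.84%). The small differences are therefore described below by programme, as the median log2 fold change of a gene list, its range over libraries and the share of members past each threshold. With 2 against 2, p = 0.333 is the smallest value an exact permutation test can give.

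**Figure D1:**
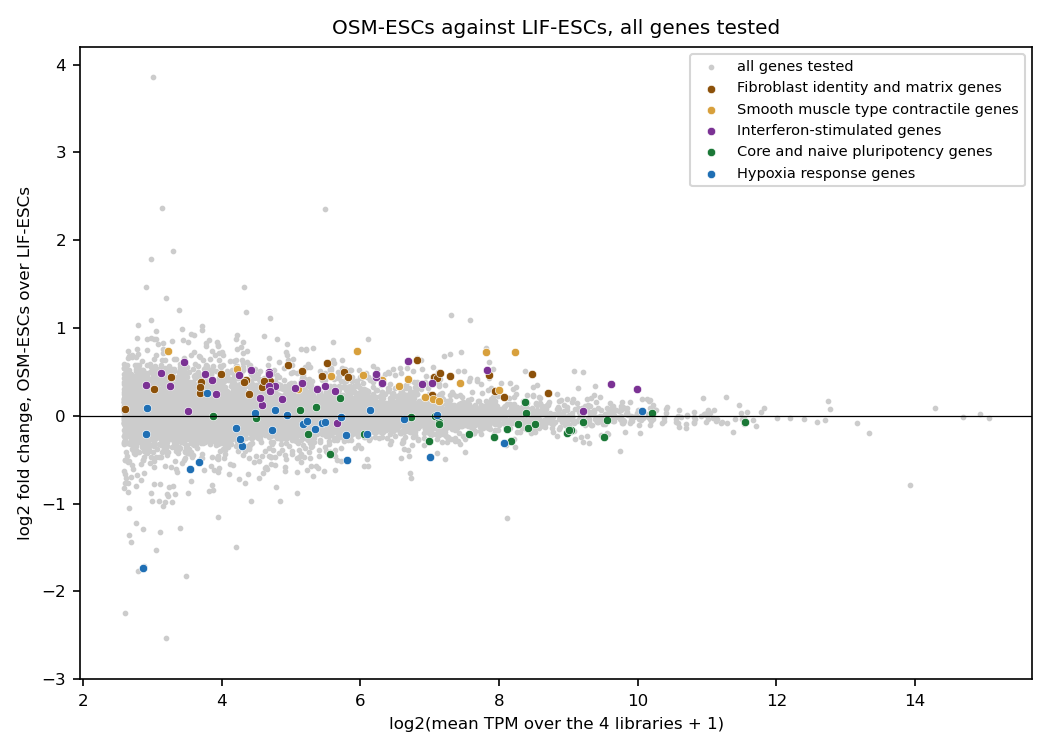
Log2 fold change of OSM-ESCs over LIF-ESCs on log2(TPM + 1) against the log2 mean level over the 4 libraries, with a point for each of the 12439 genes tested and coloured points for the members of 5 lists. Most genes lie near 0, fibroblast, contractile and interferon genes lie mostly above it, and pluripotency and hypoxia genes lie on both sides, with 24 of 30 and 20 of 28 below 0.

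The gene lists separated the groups by small but ordered steps. Among the 29 lists with at least 5 tested genes, the highest medians belonged to fibroblast and matrix genes (0.417), smooth muscle type contractile genes (0.415), chemokines and stromal cytokines (0.396) and interferon-stimulated genes (0.352). The lowest belonged to hypoxia response genes (-0.117) and core and naive pluripotency genes (-0.095). For each of these 6 lists, the median deviation had the same sign in both replicates of a group and the opposite sign in the other group. On the recovered reads, voom called 26 of 28 fibroblast, 15 of 15 contractile and 30 of 34 interferon genes higher, against 7.21% of all genes, and 12 of 27 pluripotency and 10 of 25 hypoxia genes lower, against 3.84%. The lists and their members were chosen with earlier results of these data known, so these shares are descriptions and not tests. Lists of housekeeping processes stayed near 0, with -0.008 for 79 cytoplasmic ribosomal protein genes, 0.032 for 75 nuclear oxidative phosphorylation subunits and -0.009 for 22 enzymes of serine, glycine and one-carbon metabolism.

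**Figure D2:**
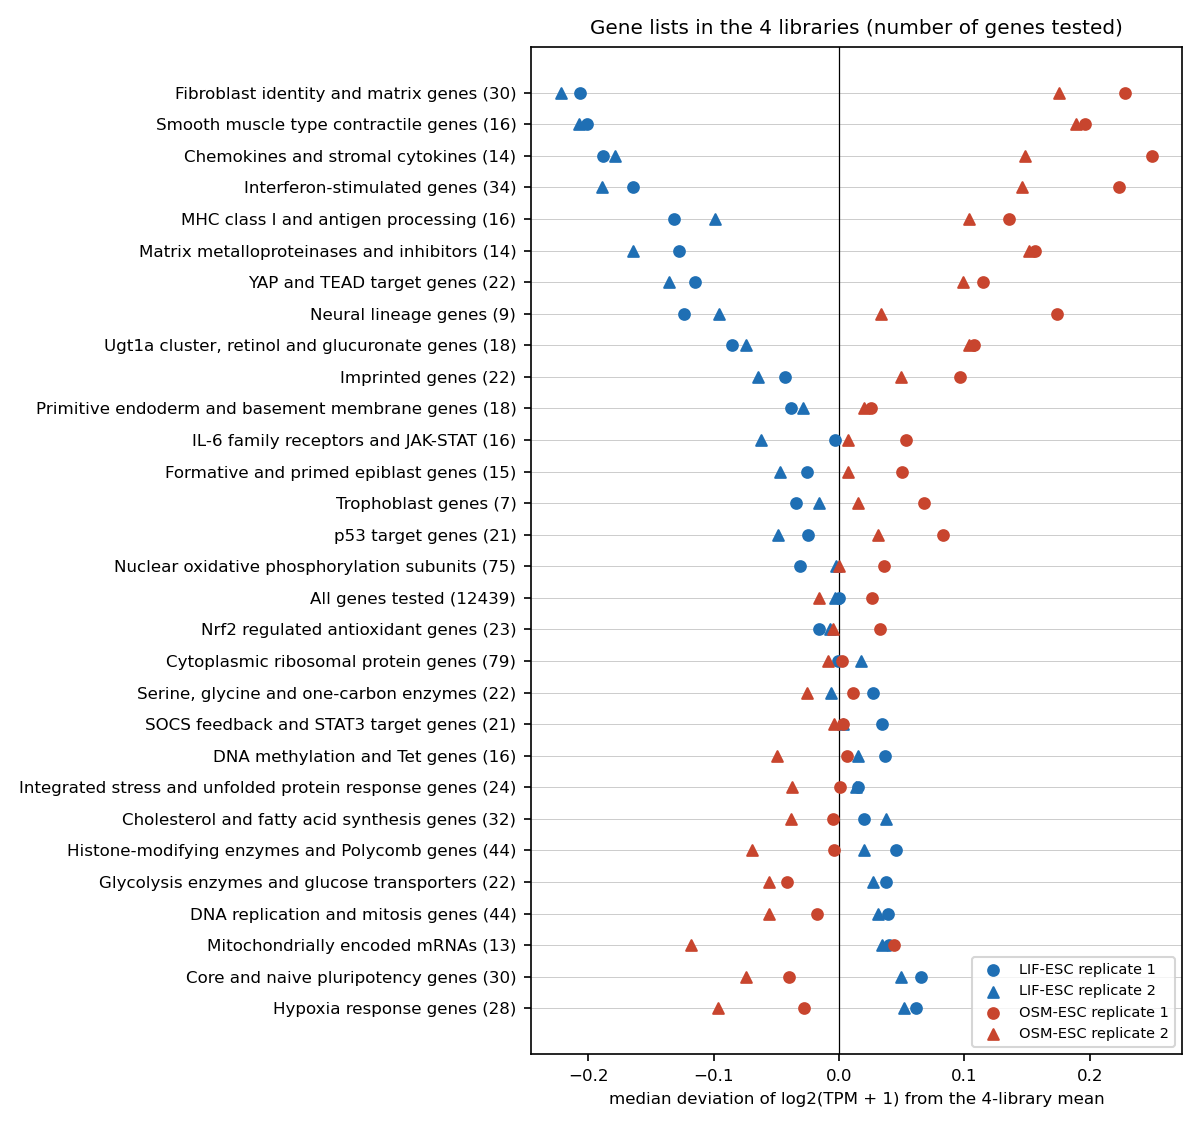
Median deviation of each list's members from their own 4-library mean on log2(TPM + 1), by list (vertical, with the number of genes tested) and library (points, LIF-ESCs in blue and OSM-ESCs in red, circles for replicate 1 and triangles for replicate 2). For the fibroblast list both LIF-ESC points lie at -0.207 or below and both OSM-ESC points at 0.176 or above, for the contractile list they lie at -0.201 or below and 0.189 or above, and for all genes tested the points meet around 0.

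Receptors and kinases of the pathway were at similar levels under both cytokines. Lifr was at 15.6 and 14.3 TPM in LIF-ESCs and 14.5 and 13.1 TPM in OSM-ESCs, so the groups overlapped. Il6st, which encodes gp130, was at 27.5 and 26.6 TPM against 28.7 and 28.2 TPM. Osmr was lower than both, at 6.06 and 6.27 TPM in LIF-ESCs and 7.82 and 7.30 TPM in OSM-ESCs. The Osmr difference of 0.26 ± 0.11 (SE) on the log2 scale did not pass the test (adjusted p = 0.317), although the libraries did not overlap. In -LIF-ESCs Osmr was almost absent, at 0.131 and 0.151 TPM, whereas Lifr and Il6st were still at 5.34 and 16.4 TPM on average. Transcripts of the cytokines themselves were present too. Lif was at 18.4 and 18.5 TPM in LIF-ESCs and at 20.4 and 21.1 TPM in OSM-ESCs (adjusted p = 0.255), and Osm was at 0.751 and 0.829 against 0.784 and 1.05 TPM, too low to be tested.

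Among the 16 tested genes of the list of receptors and JAK-STAT components, the median log2 fold change was 0.063 and 1 passed, as higher. Stat3, the main transducer of both cytokines, was at 43.0 and 42.6 TPM in LIF-ESCs and 44.9 and 44.1 TPM in OSM-ESCs, and its log2 fold change was 0.06 ± 0.06 (SE). Jak1 was higher in both OSM-ESC libraries, at 32.8 and 32.8 against 28.6 and 27.4 TPM, without passing (adjusted p = 0.121).

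Feedback and target genes of Stat3 did not move in 1 direction. Of 21 tested members, 3 passed as lower and 1 as higher, and the median was -0.013. At an unadjusted p under 0.05, 5 were higher and 6 lower, against 11.4% and 6.09% of all genes. Voom called 5 of 20 higher and 7 lower, against 7.21% and 3.84% of all genes. Socs3, the inhibitor that Stat3 induces to limit gp130 signalling, fell from 78.9 and 77.2 TPM in LIF-ESCs to 54.1 and 50.6 TPM in OSM-ESCs (-0.57 ± 0.05, adjusted p = 0.0183). It was still above the 37.2 and 39.3 TPM of -LIF-ESCs. Fos, a subunit of the AP-1 transcription factor that growth signals induce quickly, fell from 126 and 129 TPM to 80.0 and 81.5 TPM (-0.65 ± 0.04, adjusted p = 0.012), while -LIF-ESCs stood between the groups at 104 and 105 TPM. Rhox5, an X-linked homeobox gene, fell from 36.1 and 35.4 TPM to 25.99 and 27.4 TPM, and the metallothionein gene Mt1 rose from 655 and 641 TPM to 764 and 743 TPM. The other members named here differed less. Pim1, a kinase gene induced by Stat3, was at 380.4 and 377 against 409.7 and 403 TPM. Socs2 was at 29.1 and 28.6 against 28.6 and 27.5 TPM, and Tfcp2l1 at 106 and 105 against 109 and 100.0 TPM.

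The Socs3 promoter is shown because Socs3 fell while the difference in Stat3 mRNA did not pass the test (adjusted p = 0.662). It covers the 250 bases before the RefSeq gene start on the minus strand of GRCm38.p6, chr11:117969367-117969616, written 5′ to 3′ with a match to the STAT motif TTCNNNGAA in capitals.
Socs3: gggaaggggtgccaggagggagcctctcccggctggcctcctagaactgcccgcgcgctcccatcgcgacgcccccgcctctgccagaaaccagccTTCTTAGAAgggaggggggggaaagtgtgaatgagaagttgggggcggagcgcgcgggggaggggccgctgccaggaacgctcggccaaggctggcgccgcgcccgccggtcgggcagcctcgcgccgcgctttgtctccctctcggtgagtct
The match lies 145 bases before the start. The motif reads the same on both strands and was found in 5.68% of the 8131 promoters of tested genes and in 2 of the 16 members of the list that have a promoter entry. The promoters of Fos and Rhox5, the other members that fell, hold no match in this window.

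Core pluripotency factors were kept at high levels, and much of the naive network stood slightly lower in OSM-ESCs. Pou5f1, which encodes the central factor Oct4, was at 1182 and 1147 TPM in LIF-ESCs and 1181 and 1190.3 TPM in OSM-ESCs (0.03 ± 0.03). Nanog was at 289 and 291 TPM against 270.4 and 252 TPM, a log2 fold change of -0.15 ± 0.04 that did not pass (adjusted p = 0.161). In -LIF-ESCs Nanog was higher, at 436 and 431 TPM. By contrast, 28 of the 30 listed genes were lower in both -LIF-ESC libraries than in both LIF-ESC libraries. Over all 12439 genes tested, 7299 were. Sox2 was at 588 and 525 against 500.3 and 490.1 TPM, also without passing (adjusted p = 0.226). Of the 30 members, all tested, 17 were lower in both OSM-ESC libraries and 3 were higher in both, against 22.7% and 27.2% of all genes. In addition, 14 had an unadjusted p under 0.05 as lower and 1, Lin28a, as higher, against 6.09% and 11.4% of all genes. The adjusted test was passed by 5, all of them lower.

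The 5 genes were Tcl1, Fgf4, Nr0b1, Esrrb and Tdgf1. Tcl1, an activator of Akt kinase, fell from 54.8 and 51.8 TPM to 39.5 and 38.8 TPM (-0.43 ± 0.05, adjusted p = 0.0276). Nr0b1, a nuclear receptor of the naive network, fell from 316 and 315 TPM to 255 and 263 TPM (-0.28 ± 0.04), against a mean of 20.2 TPM in -LIF-ESCs. The step from LIF to OSM was thus small beside the level without cytokine. Fgf4, the growth factor that mESCs secrete, fell from 140 and 137 TPM to 116 and 111 TPM. Esrrb, an orphan nuclear receptor, fell from 268 and 258 TPM to 223 and 220.2 TPM, and Tdgf1, a Nodal co-receptor, from 785 and 803 TPM to 688 and 656 TPM. Each of these 5 genes was lower still in -LIF-ESCs on average. Klf4 and Klf5, the factors most tied to LIF signalling, were at 361 and 357 against 325 and 326 TPM, and at 202 and 203 against 182 and 168 TPM, and did not pass (adjusted p = 0.120 and 0.118).

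**Figure D3:**
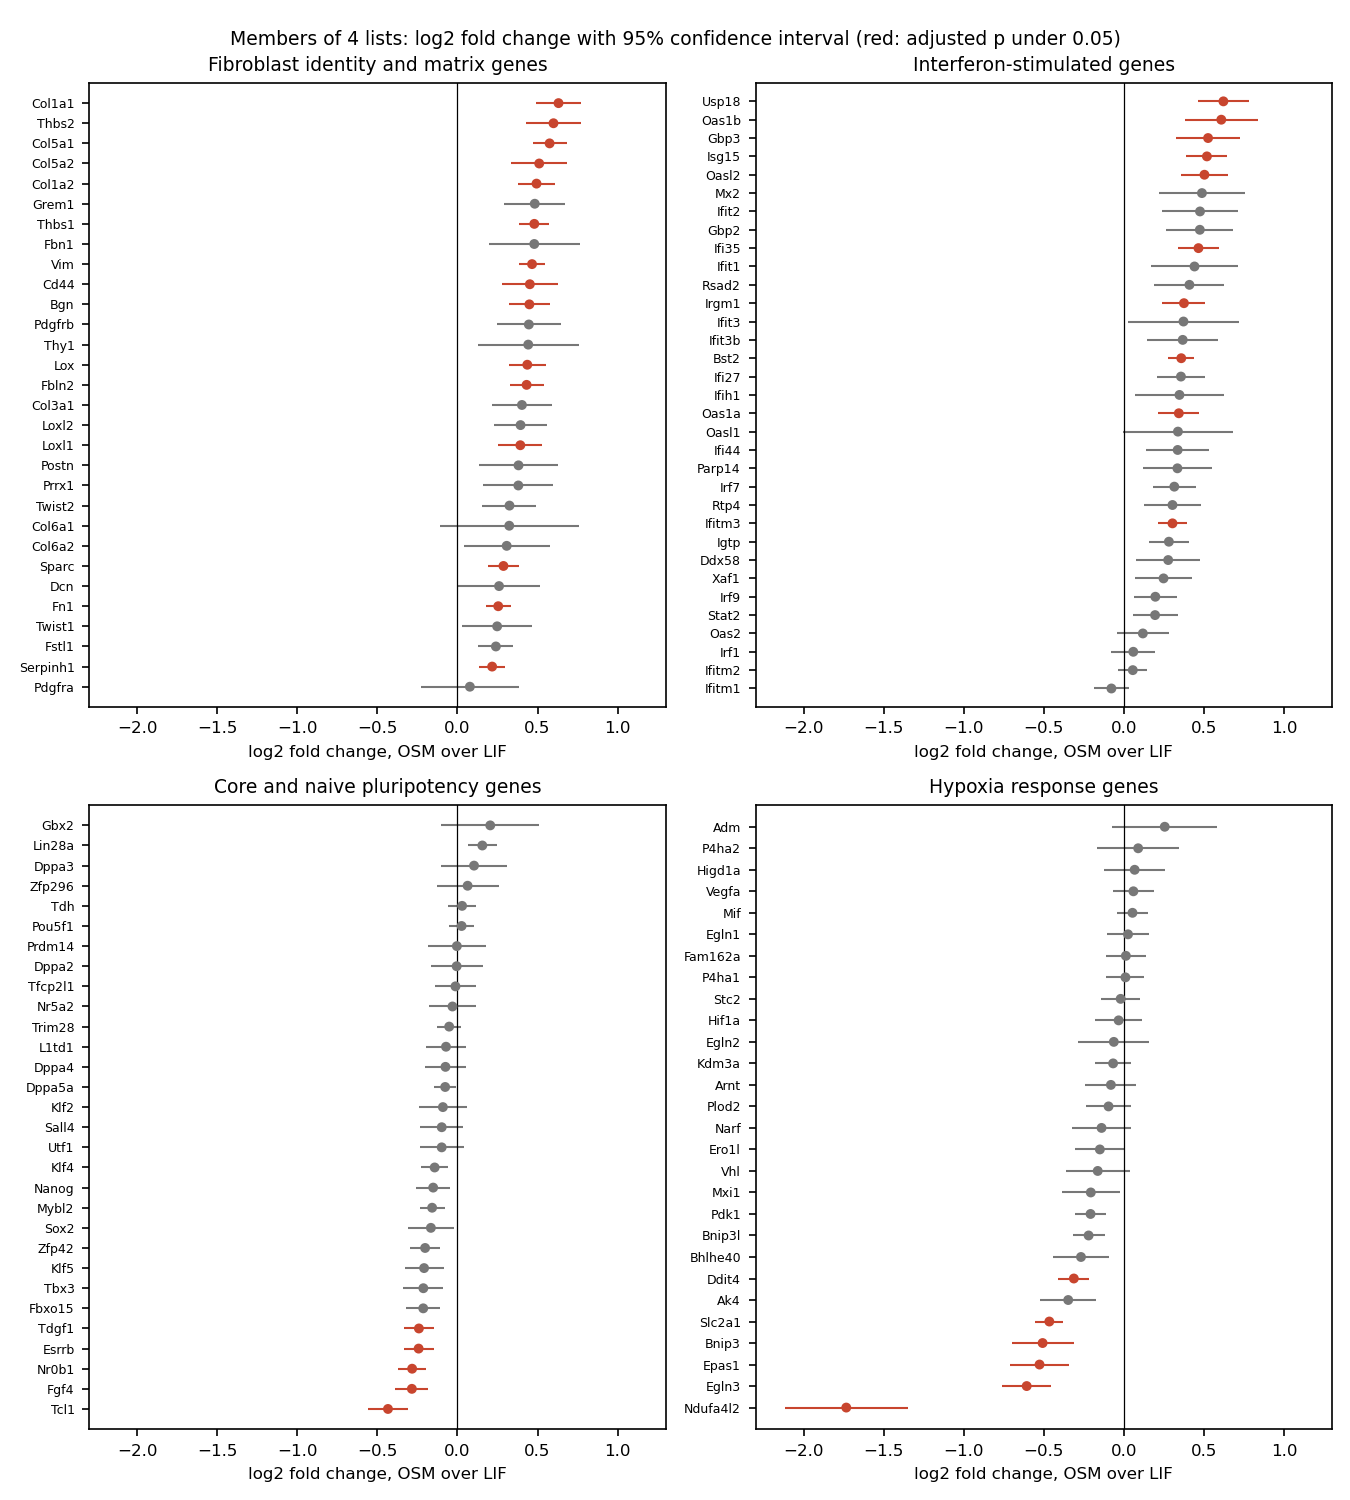
Log2 fold change of OSM-ESCs over LIF-ESCs on log2(TPM + 1) (horizontal) with its 95% confidence interval from limma for the tested members (vertical) of 4 lists, in red where the adjusted p is under 0.05. Of the 30 fibroblast genes 30 lie above 0 and of the 33 interferon genes plotted 32 do, while 5 pluripotency genes and 6 hypoxia genes pass the test and all of these lie below 0.

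Genes of the next developmental stages stayed low or changed by small steps. Among 15 tested formative and primed epiblast genes the median was 0.058. At an unadjusted p under 0.05, 6 were higher and 3 lower, against 11.4% and 6.09% of all genes. Voom called 6 of 14 higher and 0 lower, against 7.21% and 3.84% of all genes. In limma 2 passed as higher, Pim2 from 56.0 and 56.0 TPM to 73.6 and 72.3 TPM and Sox4 from 51.3 and 47.6 TPM to 62.4 and 62.5 TPM. Otx2, which opens the formative state, was at 11.6 and 12.7 against 11.8 and 11.6 TPM, and the de novo methyltransferase gene Dnmt3b at 111 and 110.2 against 126 and 127 TPM (0.19 ± 0.03, adjusted p = 0.0653). Fgf5, a marker of primed epiblast, stayed under 1 TPM in each of the 4 libraries against a mean of 17.7 TPM in -LIF-ESCs. Of the 18 primitive streak and mesendoderm factors, only Gata4 was high enough to test. The streak gene T reached at most 1.05 TPM in the 4 libraries and 60.7 TPM on average in -LIF-ESCs. Of 19 genes of the 2-cell state in the table, only Eif1a was tested (-0.04 ± 0.07), and the Zscan4 genes were at most 0.422 TPM in every one of the 4 libraries.

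Hypoxia response genes included Ndufa4l2, the largest fall among genes with a symbol of their own past the test. Of 33 listed genes, 28 were tested, 6 passed as lower and 0 as higher, and the median was -0.117. At an unadjusted p under 0.05 these counts were 11 and 0, against 6.09% and 11.4% of all genes. Ndufa4l2, a mitochondrial protein induced by HIF, fell from 11 and 9.31 TPM to 1.90 and 2.86 TPM (-1.73 ± 0.15, adjusted p = 0.0174), a ratio of 0.234. Egln3, the prolyl hydroxylase that marks HIF for destruction, fell from 13.4 and 12.7 TPM to 8.52 and 7.90 TPM (-0.61 ± 0.06, adjusted p = 0.0206). Epas1, which encodes HIF-2alpha, fell from 14.05 and 14.01 TPM to 9.32 and 9.55 TPM (-0.53 ± 0.07, adjusted p = 0.0412). These 3 genes had no overlap between groups, as the choice of the largest falls required, and the OSM-ESC libraries were the low ones.

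Bnip3, a mitophagy receptor, fell from 64.3 and 64.4 TPM to 48.7 and 41.5 TPM (-0.51 ± 0.08). Slc2a1, the glucose transporter Glut1, fell from 148 and 147 TPM to 106 and 108 TPM (-0.47 ± 0.03, adjusted p = 0.0141). Ddit4, an inhibitor of mTOR signalling, fell from 297 and 299 TPM to 244 and 236 TPM (-0.31 ± 0.04, adjusted p = 0.0319). The fall was not shared by the whole list. Hif1a was at 101 and 96.98 against 102 and 92.4 TPM, and Vegfa, the angiogenic growth factor, at 67.2 and 68.3 against 72.0 and 69.3 TPM. Adm, which encodes adrenomedullin, was at 10.9 and 12.2 against 16.02 and 12.2 TPM. Except for Epas1, the 6 genes were at their highest in -LIF-ESCs, where Slc2a1 reached 698 and 674 TPM and Ndufa4l2 38.6 and 35.6 TPM. Gene models on the opposite strand overlap exons of Ndufa4l2 (Shmt2), Bnip3 (Gm45507) and Slc2a1 (Gm12868), and the strand setting of the counting is not given in the sources used here.

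Promoters are shown for the 4 of these genes that have an entry, since they fell together and since HIF binds the core RCGTG. Each covers the 250 bases before the RefSeq gene start in GRCm38.p6, 5′ to 3′ on the gene's strand, with matches to ACGTG or GCGTG on either strand in capitals (on the other strand they read CACGT and CACGC). Slc2a1 lies at chr4:119108495-119108744 on the plus strand, and Egln3 at chr12:54203875-54204124, Ddit4 at chr10:59951771-59952020 and Bnip3 at chr7:138909507-138909756 on the minus strand.
Slc2a1: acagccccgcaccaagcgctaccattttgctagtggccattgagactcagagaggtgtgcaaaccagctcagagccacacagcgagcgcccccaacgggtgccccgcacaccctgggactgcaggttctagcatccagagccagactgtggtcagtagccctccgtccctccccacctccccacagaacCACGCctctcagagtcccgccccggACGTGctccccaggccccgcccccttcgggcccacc
Egln3: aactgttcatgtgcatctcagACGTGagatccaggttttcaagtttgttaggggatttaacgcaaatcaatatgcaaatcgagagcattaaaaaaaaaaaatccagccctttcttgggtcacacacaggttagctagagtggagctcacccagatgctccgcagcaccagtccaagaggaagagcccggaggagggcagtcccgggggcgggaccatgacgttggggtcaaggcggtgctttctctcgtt
Ddit4: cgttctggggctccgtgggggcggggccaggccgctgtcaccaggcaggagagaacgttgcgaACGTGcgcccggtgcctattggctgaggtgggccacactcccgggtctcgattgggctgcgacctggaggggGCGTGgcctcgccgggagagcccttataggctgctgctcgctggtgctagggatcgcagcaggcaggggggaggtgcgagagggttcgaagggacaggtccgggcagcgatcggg
Bnip3: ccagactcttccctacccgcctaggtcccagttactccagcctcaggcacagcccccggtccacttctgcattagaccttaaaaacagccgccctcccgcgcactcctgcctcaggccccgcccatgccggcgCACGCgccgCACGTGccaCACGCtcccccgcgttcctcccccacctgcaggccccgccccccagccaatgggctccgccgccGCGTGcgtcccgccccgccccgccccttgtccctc
In Bnip3 the run CACGTG holds ACGTG on both strands, and its 2 matches overlap. The core ACGTG was found in 4 of these 4 promoters, in 10 of the 22 promoters of tested hypoxia genes (45.5%) and in 22.9% of all promoters of tested genes. Either core was found in 18 of the 22 (81.8%) and in 59% of all promoters of tested genes. These are matches to letters, and no binding was measured. No promoter entry was found for Ndufa4l2 or Epas1.

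Glycolysis shared part of this pattern. Of 22 tested enzymes and transporters, 9 had an unadjusted p under 0.05 as lower and 0 as higher, against 6.09% and 11.4% of all genes. The median was -0.063, and 2 passed the adjusted test. These were Slc2a1 and Aldoa, the aldolase gene, which fell from 764 and 765 TPM to 659.7 and 652 TPM (-0.22 ± 0.03, adjusted p = 0.0319). Pgk1, which makes ATP further down the pathway, was at 568 and 578 against 509 and 506 TPM without passing (-0.17 ± 0.03, adjusted p = 0.0653), and voom called 8 of 20 genes of the list lower and 0 higher. Other members differed less. Ldha, which makes lactate, was at 346 and 350.5 against 346 and 343 TPM, and Pkm at 1046 and 1048 against 1019.8 and 1019 TPM. Mitochondrially encoded mRNAs had a median of -0.074 with 0 of 13 past the adjusted test, 1 at an unadjusted p under 0.05 and 3 lower by voom, and the library OSM-ESC replicate 2 set this value, which was 0.007 without it.

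Genes of fibroblasts and their matrix were higher in OSM-ESCs as a block. Of 34 listed genes 30 were tested. In 29 of them both OSM-ESC libraries lay above both LIF-ESC libraries, against 27.2% of all genes. At an unadjusted p under 0.05, 28 were higher and 0 lower, against 11.4% and 6.09% of all genes. The adjusted test was passed by 15, all as higher. Col1a1, the main chain of type I collagen, rose from 86.4 and 88.6 TPM to 134 and 138 TPM (0.63 ± 0.06, adjusted p = 0.0174). Col5a1, a chain of the fibril-starting type V collagen, rose from 23.97 and 23.88 TPM to 36.1 and 36.2 TPM (0.58 ± 0.04). Lox, which crosslinks collagen, rose from 112 and 112 TPM to 155 and 149 TPM (0.44 ± 0.05), and Vim, the intermediate filament of mesenchymal cells, from 192 and 194 TPM to 266 and 267 TPM (0.47 ± 0.03). The smallest difference was that of Pdgfra, at 4.67 and 5.11 against 5.57 and 4.87 TPM, in which the groups overlapped.

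The 6 defining fibroblast markers were present in both groups and moved with the list. Besides Col1a1, Col1a2 rose from 44.6 and 43.9 TPM to 62.7 and 62.7 TPM. Col3a1, Thy1, Pdgfrb and Prrx1 were higher in both OSM-ESC libraries without passing. The summed level of the list was 2438 and 2396 TPM in LIF-ESCs, 3207 and 3123 TPM in OSM-ESCs and 1156 and 1137 TPM in -LIF-ESCs. In -LIF-ESCs, Lox was at 0.0814, Prrx1 at 0.0976 and Col3a1 at 0.463 TPM on average, whereas Sparc and Col5a1 were higher there than in OSM-ESCs. In bulk RNA, more cells of a type and more RNA per cell cannot be told apart, and whether the marker levels account for the differences in the other stromal and interferon lists was not tested.

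Contractile genes were higher throughout the list. All 16 tested genes were higher in both OSM-ESC libraries and had an unadjusted p under 0.05, against 27.2% and 11.4% of all genes. The adjusted test was passed by 10. Acta2, smooth muscle alpha-actin, rose from 225 and 227 TPM to 368 and 381 TPM (0.73 ± 0.04, adjusted p = 0.012). Tagln, which encodes the actin-binding protein transgelin, rose from 165 and 171 TPM to 282 and 277 TPM (0.73 ± 0.04, adjusted p = 0.012). Myl9, a regulatory myosin light chain, rose from 43.0 and 47.7 TPM to 76.5 and 76.1 TPM, and Cnn1, calponin, from 6.23 and 5.83 TPM to 10.49 and 10.999 TPM. Their order over the 3 groups differed. Acta2 was low in -LIF-ESCs, at 31.0 and 30.3 TPM, while Tagln and Cnn1 were highest there, at 365 and 343 TPM and at 24.3 and 23.8 TPM. Tagln overlaps the antisense model Gm48529, which also passed as higher.

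Genes known as targets of YAP and TEAD, which respond to tension and spreading, were higher with a median of 0.234. Of 22 tested, 6 passed as higher and 1 as lower. Ankrd1 rose from 14.2 and 13.9 TPM to 21.8 and 20.9 TPM (0.57 ± 0.09, adjusted p = 0.0482), Ctgf from 197 and 195 TPM to 268 and 260.1 TPM (0.42 ± 0.03) and Cyr61 from 185 and 188 TPM to 244 and 234 TPM (0.36 ± 0.04). Voom called 9 of 18 higher and 1 lower, against 7.21% and 3.84% of all genes. The gene that passed as lower was Tead4, itself a TEAD factor of trophectoderm and mESCs, which fell from 14.5 and 13.8 TPM to 9.85 and 9.85 TPM (-0.48 ± 0.07, adjusted p = 0.0426). Yap1 was level, at 57.4 and 57.3 against 57.9 and 57.0 TPM.

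Secreted signals and proteases of stroma followed. Among 14 tested chemokines and cytokines, 3 passed as higher, 0 as lower, and the median was 0.396. Ccl2, which attracts monocytes, rose from 174 and 178 TPM to 230.2 and 233 TPM (0.39 ± 0.05, adjusted p = 0.0391), Ccl7 from 167 and 159 TPM to 219 and 212 TPM (0.40 ± 0.05) and Csf1, the macrophage growth factor, from 69.4 and 69.0 TPM to 101 and 95.01 TPM (0.50 ± 0.06). In -LIF-ESCs, Ccl2 was at 0.336 TPM and Ccl7 was listed at 0. Spp1, osteopontin, did not follow, at 1117 and 1131 against 1170.02 and 1114 TPM. Of 14 tested metalloproteinases and inhibitors 5 passed as higher, among them Timp2 (97.8 and 93.6 to 138 and 139.9 TPM), Timp3 (21.2 and 21.6 to 34.1 and 32.4 TPM) and Mmp2 (22.96 and 23.12 to 31.3 and 31.8 TPM). Mmp11 was lower in both OSM-ESC libraries, at 403 and 420.1 against 469 and 465 TPM, without passing (adjusted p = 0.0839).

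Most of the acute phase and other response genes that OSM is known to raise in liver cells and fibroblasts were too low to test. Of 18 in the table, 3 were tested. All 3 were higher in both OSM-ESC libraries with an unadjusted p under 0.05. Voom called 3 of 3 higher, against 7.21% of all genes. Tnc, the matrix protein tenascin-C, rose from 197 and 194 TPM to 289 and 279.6 TPM (0.54 ± 0.06, adjusted p = 0.0276), and Timp1 and the IL-33 receptor gene Il1rl1 were higher in both OSM-ESC libraries without passing (both adjusted p = 0.112). Saa1 was listed at 0 in the 4 libraries, and Hp and Fgg stayed at 0.276 TPM or below.

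**Figure D4:**
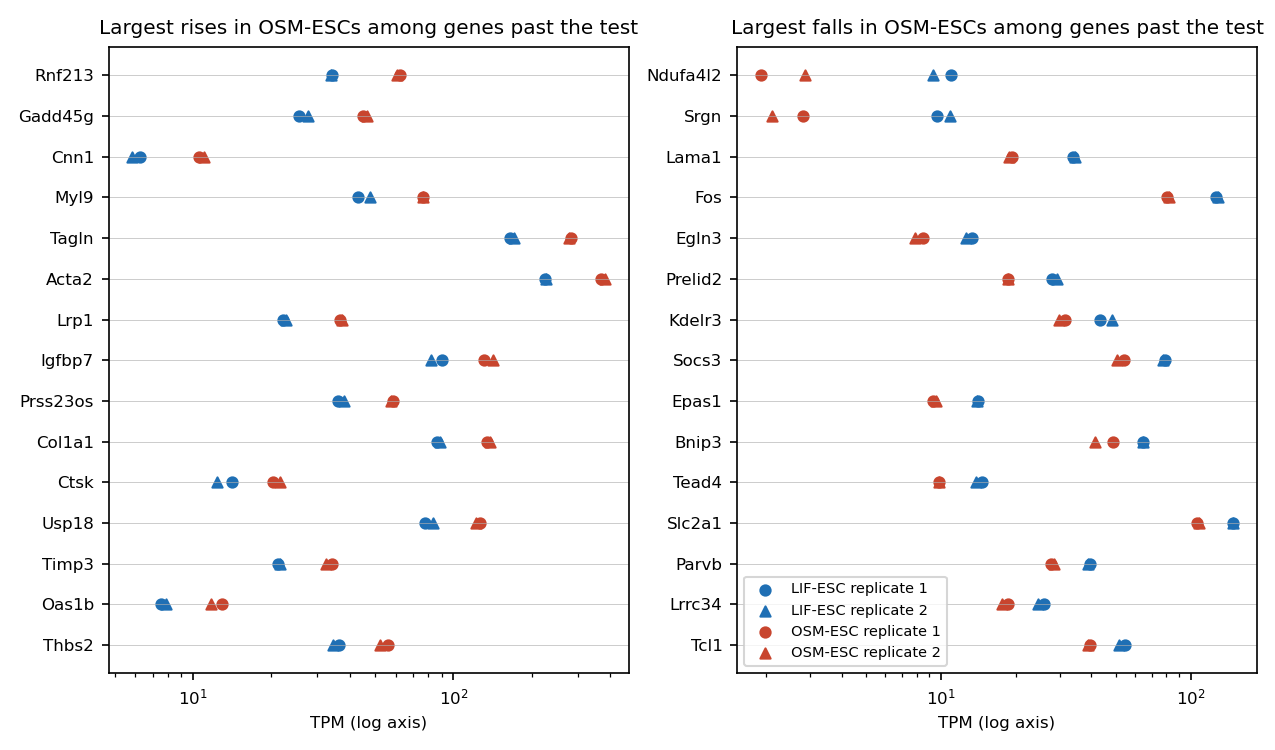
TPM (horizontal, log axis) in each LIF-ESC (blue) and OSM-ESC (red) library, circles for replicate 1 and triangles for replicate 2, for the 15 genes with the largest rises and the 15 with the largest falls past the test among genes with a symbol of their own. Only genes with no overlap between the groups were drawn, so the separation in each row follows from the choice. An example is Acta2 at 225 and 227 against 368 and 381 TPM.

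Interferon-stimulated genes were higher in OSM-ESCs almost throughout the list. Of 34 tested, 32 were above both LIF-ESC libraries in both OSM-ESC libraries, against 27.2% of all genes. An unadjusted p under 0.05 was reached by 29 as higher and 0 as lower, against 11.4% and 6.09% of all genes. The adjusted test was passed by 11. Usp18, which cuts ISG15 from proteins, rose from 77.6 and 83.2 TPM to 127 and 122 TPM (0.62 ± 0.06, adjusted p = 0.0239). Isg15 itself rose from 185 and 187 TPM to 255 and 279 TPM (0.52 ± 0.05, adjusted p = 0.0202), and Oas1b, an oligoadenylate synthetase gene, from 7.55 and 7.85 TPM to 12.9 and 11.7 TPM. Bst2, tetherin, rose from 691 and 675 TPM to 867 and 885 TPM, and Ifitm3, an antiviral membrane protein, from 908 and 914 TPM to 1105 and 1145 TPM. Irf1 was level, at 10.2 and 10.1 against 10.2 and 11.1 TPM, as was Ifitm2.

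Antigen presentation by MHC class I followed in part. Of 16 tested members, 11 had an unadjusted p under 0.05 as higher, against 11.4% of all genes, 3 passed, and the median was 0.281. B2m, the light chain of MHC class I, rose from 591 and 584 TPM to 765 and 723 TPM (0.34 ± 0.04, adjusted p = 0.0292), H2-D1 from 95.6 and 98.6 TPM to 124 and 129 TPM and H2-T22 from 21.1 and 21.1 TPM to 30.7 and 28.6 TPM. The folding factors Calr and Canx, which serve all secreted proteins, overlapped between the groups or were slightly lower. H2 genes resemble each other closely, so the split of reads between H2-D1 and H2-T22 and their relatives is uncertain.

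Primitive endoderm genes moved in both directions. The list as a whole had a median of 0.080 over 18 tested members, with 2 passing in each direction, and its sign turned with the filter on low genes (-0.001 at a mean of at least 1 TPM). Srgn, the proteoglycan serglycin, fell from 9.61 and 10.9 TPM to 2.79 and 2.10 TPM (-1.71 ± 0.19, adjusted p = 0.0267), which rests on 198 and 216 against 62 and 56 recovered reads. Lama1, the laminin chain made by primitive and parietal endoderm, fell from 33.8 and 34.6 TPM to 19.3 and 18.7 TPM (-0.81 ± 0.10, adjusted p = 0.0319). Sparc, from 225 and 216 TPM to 275 and 264 TPM, and the activin antagonist Fst, from 10.4 and 9.92 TPM to 14.8 and 14.1 TPM, rose, and Sparc is also on the fibroblast list.

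Of 5 transcription factors of this lineage on the list, Gata4, Gata6, Sox7 and Sox17 were lower in both OSM-ESC libraries, though none passed, and Foxa2 overlapped at 0.450 and 0.655 against 0.626 and 0.487 TPM. Gata4 was at 6.44 and 7.01 TPM in LIF-ESCs and 4.94 and 4.48 TPM in OSM-ESCs (adjusted p = 0.247). Gata6 was at 3.44 and 3.57 against 2.98 and 3.17 TPM, Sox7 at 4.2 and 4.1 against 1.83 and 2.05 TPM and Sox17 at 1.09 and 1.07 against 0.415 and 0.397 TPM. Gata6, Sox7 and Sox17 were under the limit for testing, as were Cubn and Amn, the partners of the endoderm uptake receptor cubam. Cubn was at 2.52 and 2.78 against 0.590 and 0.397 TPM, and Amn at 4.92 and 4.81 against 2.20 and 2.28 TPM. In a fit of all genes with a mean of at least 1 TPM, the log2 fold change was -0.86 ± 0.10 for Amn (adjusted p = 0.0472), -1.29 ± 0.17 for Cubn (adjusted p = 0.0538) and -0.81 ± 0.13 for Sox7 (adjusted p = 0.0719). Other members did not follow. Lrp2, an uptake receptor that works with cubam, was higher in both OSM-ESC libraries, at 16.5 and 15.3 against 13.3 and 13.3 TPM (0.24 ± 0.06, adjusted p = 0.117), as was Plat, at 3.63 and 3.08 against 2.37 and 2.65 TPM. Among basement membrane genes, Lamc1 was at 262 and 257 against 248 and 243 TPM and Col4a1 at 53.7 and 51.8 against 51.6 and 53.9 TPM. Several of the genes named here were chosen after their values were seen. Most of the lower genes were lowest in -LIF-ESCs, where Cubn and Sox7 were at 0.124 and 0.0756 TPM.

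**Figure D5:**
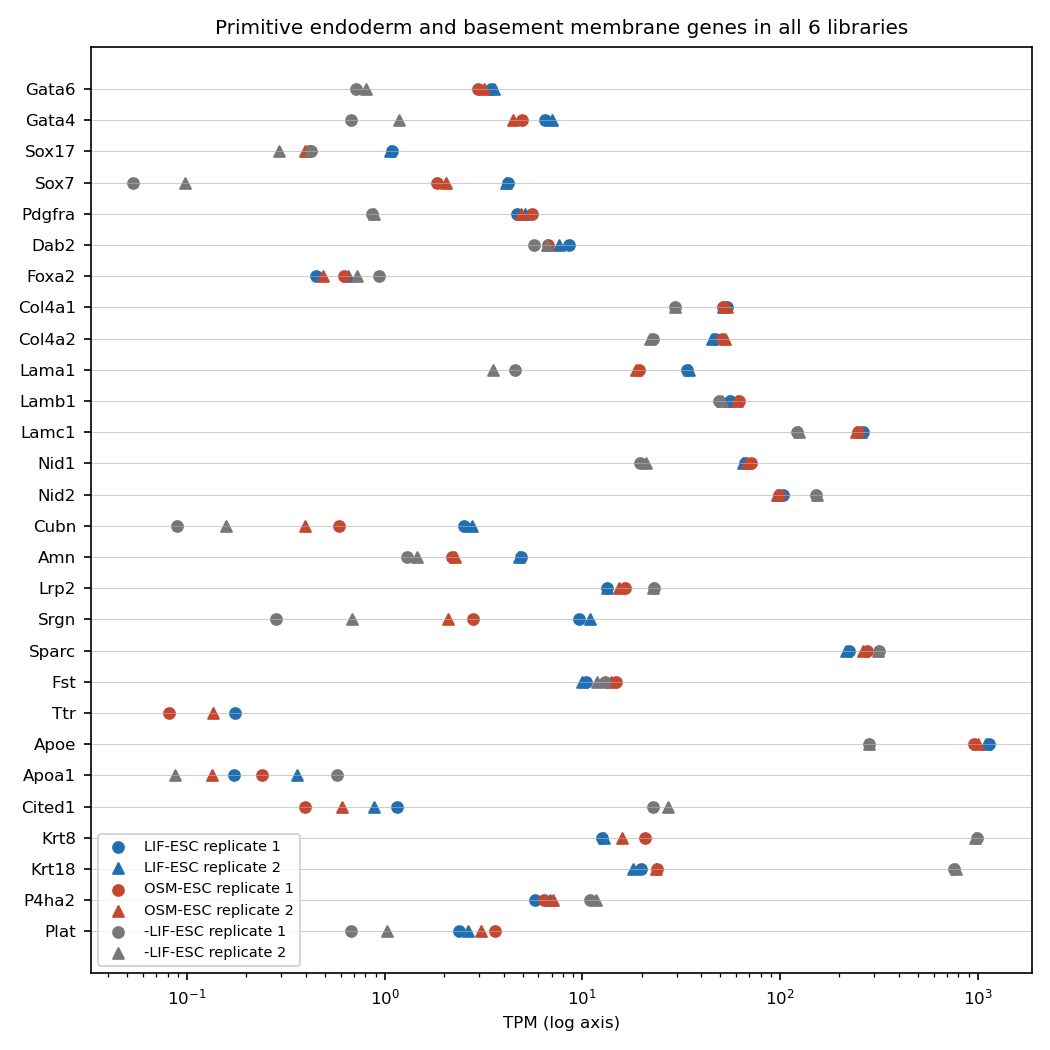
TPM (horizontal, log axis) of the 28 listed primitive endoderm and basement membrane genes in all 6 libraries (LIF-ESCs blue, OSM-ESCs red, -LIF-ESCs grey, circles for replicate 1 and triangles for replicate 2, values listed at 0 not drawn). Sox7, Sox17, Cubn, Amn, Srgn and Lama1 lie lower in OSM-ESCs than in LIF-ESCs, while Lamb1, Col4a2, Lrp2 and Krt18 lie higher.

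Markers of trophoblast, blood and endothelium were scarce or did not pass except for Tead4, while some neural genes rose. Of the 7 tested trophoblast genes (median 0.049) only Tead4 passed, and of the 4 tested genes of neutrophils, macrophages and blood 0 passed, with 1 at an unadjusted p under 0.05 and 1 lower by voom. The trophoblast gene Cdx2 was at 0.236 and 0.0490 against 0.657 and 0.693 TPM and the endothelial gene Cdh5 was at most 0.152 TPM in the 4 libraries, while Pecam1, which mESCs also make, was at 37.9 and 37.9 against 31.9 and 30.3 TPM (adjusted p = 0.0573). Of 9 tested neural lineage genes, 7 were higher and 2 lower in both OSM-ESC libraries, against 27.2% and 22.7% of all genes. At an unadjusted p under 0.05, 4 were higher and 1 lower, against 11.4% and 6.09%. Voom called 4 of 8 higher and 1 lower, against 7.21% and 3.84%. Nes, the intermediate filament nestin, rose from 12.7 and 12.6 TPM to 17.5 and 16.8 TPM (0.41 ± 0.05, adjusted p = 0.0307) and Nefl, a neurofilament gene, from 41.8 and 43.5 TPM to 61.0 and 57.0 TPM. The neural factors Pax6 and Sox1 were too low to test, at 2.83 to 3.72 TPM.

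Targets of p53 and imprinted genes had few calls past the adjusted test and more at an unadjusted p under 0.05. The 21 tested p53 targets had a median of 0.041. At an unadjusted p under 0.05, 7 were higher and 1 lower, against 11.4% and 6.09% of all genes. Voom called 5 of 19 higher and 1 lower, against 7.21% and 3.84%. Cdkn1a, the p53 target that halts the cell cycle, rose from 179 and 168 TPM to 237 and 229 TPM (0.42 ± 0.07, adjusted p = 0.0488), and Plk2 from 50.4 and 48.2 TPM to 63.6 and 60.8 TPM, while the other 19 tested p53 targets did not pass. Trp53 itself was at 212 and 207 against 208 and 203 TPM. Of 22 tested imprinted genes (median 0.110), 2 passed, and 10 were higher and 0 lower at an unadjusted p under 0.05. Voom called 8 of 20 higher and 1 lower, against the same shares of all genes. Igf2, a growth factor gene expressed from the paternal allele, rose from 91.8 and 85.3 TPM to 119.9 and 113 TPM (0.39 ± 0.06, adjusted p = 0.0445) and Ndn, necdin, from 12.2 and 11.9 TPM to 15.8 and 16.3 TPM. H19, its maternal neighbour, was at 64.5 and 64.0 against 74.5 and 71.1 TPM (adjusted p = 0.0975) and at 829 TPM on average in -LIF-ESCs.

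Cell cycle and chromatin genes were level or slightly lower. Of 44 replication and mitosis genes (median -0.073), 29 were lower in both OSM-ESC libraries and 4 higher, against 22.7% and 27.2% of all genes. The adjusted test in limma was passed by 0. At an unadjusted p under 0.05, 10 were lower and 1 higher, against 6.09% and 11.4% of all genes. Voom called 8 of 40 lower and 0 higher, against 3.84% and 7.21%. These shares of all genes hold for the other lists of this paragraph too. Ccnb1, the mitotic cyclin B1, was at 254 and 264 against 233 and 229 TPM (-0.17 ± 0.03, adjusted p = 0.0928). Of 44 histone modifiers 0 passed, with 7 lower and 2 higher at an unadjusted p under 0.05. Voom called 9 of 41 lower and 2 higher. Of 16 DNA methylation genes 0 passed, with 3 lower and 1 higher at an unadjusted p under 0.05, and voom called 4 lower and 1 higher. Cholesterol and fatty acid synthesis genes had a median of -0.057 with 0 of 32 passing by either tool and 3 at an unadjusted p under 0.05. Antioxidant genes regulated by Nrf2 (median 0.003, 0 of 23 passing, 4 at an unadjusted p under 0.05) and genes of the integrated stress and unfolded protein responses (-0.045, 0 of 24 passing, 1 at an unadjusted p under 0.05) had 0 calls by voom as well. The Ugt1a cluster, retinol and glucuronate list had a median of 0.153, with 11 of 18 tested genes higher and 2 lower in both OSM-ESC libraries, 8 higher and 1 lower at an unadjusted p under 0.05, and 7 higher and 1 lower by voom. The gene that passed was Akr1b8, an aldo-keto reductase gene, rising from 20.1 and 18.5 TPM to 30.2 and 28.4 TPM (0.58 ± 0.07). The Ugt1a genes share most of their exons and cannot be read apart. Ugt1a2 was at 3.91 and 3.86 against 5.95 and 6.30 TPM, and 0.0686 TPM on average in -LIF-ESCs.

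Several of the largest changes lay outside the lists. Rnf213, a giant ubiquitin ligase linked to moyamoya disease, rose most among genes with a symbol of their own, from 34.1 and 33.8 TPM to 62.6 and 60.4 TPM (0.84 ± 0.05, adjusted p = 0.012). Gadd45g, a stress sensor gene, rose from 25.4 and 27.7 TPM to 44.8 and 46.5 TPM (0.76 ± 0.06). Lrp1, an uptake receptor, rose from 22.2 and 22.7 TPM to 36.5 and 37.2 TPM, Igfbp7 from 90.02 and 82.2 TPM to 131 and 142 TPM and Ctsk, the collagen-cutting cathepsin K, from 14.1 and 12.4 TPM to 20.4 and 21.5 TPM. Igfbp7 and Ctsk were low in -LIF-ESCs, with Ctsk at 0.0584 TPM and listed at 0. Among the falls, Prelid2 went from 27.8 and 29.2 TPM to 18.6 and 18.6 TPM (-0.59 ± 0.05), Kdelr3, a receptor that returns proteins to the endoplasmic reticulum, from 43.2 and 48.5 TPM to 31.3 and 29.7 TPM, and Parvb, the focal adhesion protein beta-parvin, from 39.3 and 38.7 TPM to 27.6 and 28.4 TPM. In each of these genes the 2 groups did not overlap, which was a condition for naming them among the largest changes. Other gene models share exon positions with several genes named above, and reads of such pairs cannot be told apart without the strand setting. Models on the opposite strand of Rnf213 (A930037H05Rik), Tnc (8030451A03Rik) and Col5a1 (2810430I11Rik) also passed as higher, as did Gm49394 on the strand of Igf2. Opposite-strand models over Timp3 (Syn3), Usp18 (Gm44148), Nefl (Nefm), Sox4 (Gm26735), H2-T22 (A930015D03Rik), Igfbp7 (Polr2b) and Kdelr3 (Ddx17) did not pass.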

How the data were processed

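RNA-seq of mESCs was analysed from 6 libraries, of which 4 were compared. The authors aligned reads to mm10 with HISAT2 after Trimmomatic, counted them with featureCounts and deposited TPM for 28584 symbols. The annotation and the strand setting are not given in the sources used here. Reads were recovered as whole multiples of 1 step per library with exon lengths of GENCODE M21, in which 28404 symbols (99.4%) were found once, and 95.4% of values were whole within 0.02 of a read. They give the depth.

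Log2(TPM + 1) was fitted with limma 3.58.1 in R 4.3.3, eBayes with a trend, for genes with a mean of at least 5 TPM over the 4 libraries. The -LIF-ESC libraries entered the fit, which left 3 residual degrees of freedom (5.67 with the prior). P-values were adjusted by Benjamini-Hochberg over 12439 genes. The steps were tested on simulated reads of 11475 genes, with the same dispersion for every gene. They recovered 64% of 100 genes changed by a log2 fold of 0.5 and 97% of 100 changed by 1. They also called 13 unchanged genes. In the data, 110 of the 176 genes that passed as higher and 30 of the 44 lower ones changed by less than 0.5. The 33 gene lists came from general knowledge. The members and lists were chosen with earlier results of these data known, and lists are described by counts and medians only.

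Named genes were the 15 with the largest change in each direction past the test with no overlap between groups and a symbol of their own, up to 4 members of each list with the smallest p and its first 3, the cytokines, receptors, Stat3 and Socs3, and the genes with the largest differences between replicates. Further list members were named after their values were seen. Some members are counted in their lists but not reported here by name. Promoters came from RefSeq (GRCm38.p6). Alternatives were a pseudocount of 0.1, other filters, scalings and fits, voom on recovered reads, a replicate block and each library left out.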

Additional observations from a re-analysis of the deposited data

How the results depend on the processing

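Besides the fit of the report, 17 other settings were tried, and Socs3 and Col1a1 kept their directions in each. Not every setting could turn a direction. Other filters, only the 4 libraries, no trend, a replicate block or a -LIF-ESC library left out leave a gene's log2 fold change unchanged. Where the groups do not overlap, leaving out a compared library cannot turn the sign either. Of the 72 named genes past an adjusted p of 0.05, 0 changed sign under any alternative, but they lost significance in 570 of 1201 combinations of gene and setting. Named genes that had not passed gained significance in 83 combinations. The counts of genes depend strongly on the setting. They were 67 higher and 16 lower without a filter on low genes, 88 and 24 at a mean of at least 1 TPM, 85 and 13 with only the 4 libraries compared, 291 and 108 after removal of small RNA gene models, 827 and 441 with voom on recovered reads, and 25 lower without a trend in eBayes. With a replicate block in limma 0 and 0 genes passed (1268 and 625 at an unadjusted p under 0.05). Same-numbered replicates did not deviate together (r across genes of -0.02 between LIF-ESCs and OSM-ESCs). This correlation does not show how the cultures were split or harvested, so it cannot settle whether the numbers pair the libraries. With 1 library left out, the remaining library of that group is assumed to vary like the other groups, and the counts ranged from 0 to 73 higher and from 0 to 12 lower.

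The list medians were steadier, in part by construction. With only the 4 libraries, no trend, a replicate block or a -LIF-ESC library left out, the medians cannot move, while the counts can. Of the 29 lists followed across settings, 24 kept 1 sign throughout. The exceptions were the mitochondrially encoded, ribosomal protein, Nrf2, one-carbon and primitive endoderm genes, with medians from -0.074 to 0.080 in the fit of the report. Without a filter the median moved to 0.110 for formative, 0.273 for YAP, 0.341 for chemokine, 0.231 for metalloproteinase, -0.074 for hypoxia, 0.193 for Ugt1a, 0.140 for trophoblast and 0.068 for neural genes, and it reversed to -0.017 for primitive endoderm genes. At a mean of at least 1 TPM it was 0.085 for formative, 0.273 for YAP, 0.231 for metalloproteinase, 0.221 for Ugt1a, 0.142 for imprinted and 0.128 for trophoblast genes, and reversed to -0.001 for primitive endoderm genes. At a mean of at least 20 TPM it was -0.043 for Stat3 target, 0.110 for formative, 0.389 for contractile, 0.278 for YAP, 0.318 for metalloproteinase, 0.219 for MHC class I, -0.111 for glycolysis, -0.067 for hypoxia, 0.038 for imprinted and 0.041 for primitive endoderm genes. These filters change which members are tested. A pseudocount of 0.1 gave 0.260 for YAP genes, removal of mitochondrial genes 0.218 for Ugt1a genes, and removal of small RNA models 0.229 for metalloproteinase and 0.224 for Ugt1a genes. Voom gave 0.190 for YAP, 0.248 for MHC class I, -0.094 for cholesterol and 0.284 for neural genes. The cause of these shifts was not tested.

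With 1 library left out the medians ranged from 0.044 to 0.104 for receptor and JAK-STAT, -0.045 to -0.009 for Stat3 target, -0.119 to -0.088 for pluripotency, 0.010 to 0.080 for formative, 0.380 to 0.438 for fibroblast, 0.229 to 0.262 for YAP, 0.344 to 0.456 for chemokine, 0.247 to 0.303 for metalloproteinase, 0.330 to 0.402 for interferon, 0.227 to 0.281 for MHC class I, -0.092 to -0.057 for glycolysis, and -0.152 to -0.081 for hypoxia genes. They ranged from -0.162 to 0.007 for mitochondrially encoded, -0.082 to -0.028 for cholesterol, -0.079 to -0.010 for DNA methylation, 0.135 to 0.211 for Ugt1a, -0.015 to 0.037 for Nrf2, -0.062 to -0.005 for stress response, 0.041 to 0.098 for p53, 0.107 to 0.151 for imprinted, 0.024 to 0.091 for primitive endoderm, 0.039 to 0.112 for trophoblast, and 0.099 to 0.265 for neural genes. The mitochondrially encoded mRNAs reversed, to 0.007, without OSM-ESC replicate 2. Depth was 21869003 to 28994417 recovered reads. Replicates differed by more than sampling noise, since the chi-square per gene averaged 2.10 between the LIF-ESC libraries and 4.15 between the OSM-ESC libraries.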

Other observations

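Of the 176 genes that passed as higher in OSM-ESCs, 39 were on the stromal lists and 14 more on the interferon or MHC class I lists. Another 12 were on other lists and 111 on none, and 33 of the 176 had no symbol of their own, as defined above. Of the 44 that passed as lower, 1 was on a stromal list, 0 on the interferon or MHC class I lists, 17 on other lists and 26 on none. Among all 12439 genes tested, 96 were on the stromal lists and 50 more on the interferon or MHC class I lists. Another 583 were on other lists and 11710 on none, and 2763 had no symbol of their own. In 102 of the 176 genes both -LIF-ESC libraries lay below all 4 compared libraries and in 45 they lay above them. For the 44 lower genes these counts were 21 and 14, and over all 12439 genes tested they were 6904 and 3353.

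Some gene models differed widely between replicates. Gm10095 was at 1.64 TPM in OSM-ESC replicate 1 and 167 TPM in OSM-ESC replicate 2, against 2.43 and 3.90 TPM in LIF-ESCs. Mir6979 was listed at 0 in LIF-ESC replicate 1 and at 11.9 TPM in LIF-ESC replicate 2, and Rpl35a-ps6 at 0.640 and 15.3 TPM. Small RNA gene models held 20.4% to 22.3% of all TPM in the 4 libraries and mitochondrial genes 3.46% to 3.90%. Both shares were at an extreme in OSM-ESC replicate 2, where small RNA models were highest and mitochondrial genes lowest.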
